A study of Macaca fascicularis with 2 samples.

Results

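Cytotoxic granules are secretory lysosomes that killer lymphocytes discharge onto a target cell. Perforin (PRF1) forms pores in the target membrane, granzymes are the serine proteases that enter through them, and granulysin (GNLY) is a membrane-damaging granule protein. NKG7 is a granule membrane protein linked to exocytosis, and CST7 (cystatin F) is an inhibitor of the cathepsins that activate progranzymes. CCL5 (RANTES) is a chemokine stored and released by activated and memory killer T cells. CMA1 encodes chymase, a serine protease best known from mast cells.

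The 9 genes GZMA, GZMB, GZMK, PRF1, GNLY, NKG7, CST7, CMA1 and CCL5 were taken by symbol from the 29324 gene rows of the count matrix, and each matched 1 row. They were selected on their counts in these same cells, since earlier measurements of their levels across the CD4 and CD8 tag gates were in view, so their levels across the gates are given as a description and no test was made on them. The cells were circulating double positive T cells from 1 untreated cynomolgus monkey aged 10 years. CD4+ cells were taken from blood mononuclear cells on magnetic beads, CD8+ cells were then taken from these, and 1 gene expression library and 1 surface library with CD4 and CD8 antibody tags were read from the same barcodes. With 1 animal and 1 pair of libraries there was no replicate, and every interval below is a 95% interval that covers counting error only.

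Of 8953 barcodes, all with UMIs in both libraries, 8830 cells passed the filters and 8349 were gated as T cells, with at least 2 UMIs of CD3D, CD3E, CD3G and TRAC together and at most 1 each of B cell and of monocyte genes. The T cells held 29390287 gene UMIs, with a median of 3122 per cell. A cell was called high for a tag at 144 or more CD4 tag UMIs or at 419 or more CD8 tag UMIs. This gave 5512 CD4hiCD8lo, 2429 CD4hiCD8hi, 377 CD4loCD8hi and 31 CD4loCD8lo T cells. The limit on the CD8 tag cut through a continuous distribution, since 677 T cells lay within 10% of it, against 56 at the CD4 limit. The 113 B cells used further on as a background had medians of 135 CD4 and 199 CD8 tag UMIs. CD4loCD8hi T cells had a median of 101 CD4 tag UMIs, and CD4hiCD8lo T cells a median of 226 CD8 tag UMIs. Whether the cells of these 2 gates carried both coreceptors was not tested. Levels are given as CPM, the UMIs of a gene per 1000000 gene UMIs summed over the cells of a gate. Shares of cells were taken after each cell had been thinned to 2200 UMIs, which 7675 T cells reached, because the gates differed in depth (medians of 2941, 3752 and 3597 UMIs in the order above). Levels were not compared between genes, whose capture may differ.

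Among the gated T cells the granule genes were carried by a minority of cells. At least 1 of the 9 genes was detected in 1939 of 7675 thinned T cells, or 25.3% (24.3 to 26.3%), and 482 cells held 6 to 9 of them. NKG7 was seen in 21.0% of the thinned cells, CST7 in 19.2%, GZMB in 18.4%, CCL5 in 14.5%, PRF1 in 9.89%, GNLY in 8.12%, GZMK in 5.60%, GZMA in 3.60% and CMA1 in 3.34%. The UMIs of some genes lay in very few cells. Of the 988 GZMA UMIs, 50% were found in 78 of the 8349 unthinned T cells, and of the 3061 GZMK UMIs 50% were found in 105 cells. GZMB was spread more widely, with 50% of its 25644 UMIs in 416 cells and a median of 16 UMIs in a positive cell. CMA1 was at the opposite end, as 74.3% of its 424 positive cells held a single UMI.

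All 9 genes were higher in CD4loCD8hi than in CD4hiCD8lo T cells, with CD4hiCD8hi T cells between them. For GZMB, the main caspase-activating granzyme, the level was 373 CPM (364 to 382) in CD4hiCD8lo, 1382 CPM (1360 to 1405) in CD4hiCD8hi and 3171 CPM (3079 to 3264) in CD4loCD8hi cells. None of these intervals overlapped. GZMA, a tryptase-like granzyme, stood at 11.6 CPM (10.0 to 13.3), 49.9 (45.7 to 54.3) and 180.8 (159.6 to 204.2) in the same order. PRF1 stood at 27.3 CPM (24.9 to 29.8), 108.4 (102.2 to 114.9) and 327.0 (298.2 to 357.9). The gates thus followed the same order for the pore former and for both of these granzymes. GNLY was measured at 27.0 CPM (24.6 to 29.5), 132.4 (125.5 to 139.6) and 485.0 (449.8 to 522.3). CCL5 was measured at 100.5 CPM (95.8 to 105.3), 429.6 (417.1 to 442.3) and 1466 (1404 to 1530). These 2 genes of secreted products, together with GZMA, showed the widest spans of the 9. NKG7 went from 226.5 CPM (219.5 to 233.7) over 785.4 (768.6 to 802.5) to 1850 (1780 to 1922). CST7 went from 123.8 CPM (118.7 to 129.2) over 425.9 (413.5 to 438.5) to 918.8 (870.0 to 969.6).

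GZMK and CMA1 kept a narrower span. GZMK, the granzyme of less differentiated memory T cells, was at 67.7 CPM (63.9 to 71.7) in CD4hiCD8lo, 150.1 (142.8 to 157.7) in CD4hiCD8hi and 202.3 (179.8 to 226.9) in CD4loCD8hi cells. CMA1 was at 9.84 CPM (8.42 to 11.4), 31.8 (28.5 to 35.4) and 39.5 (29.9 to 51.2), and for this gene the intervals of both CD8hi gates overlapped. In the 31 CD4loCD8lo cells, whose median depth was 1783 UMIs, GZMB had 65 UMIs and GNLY none, and these cells were not used further.

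**Figure D1:**
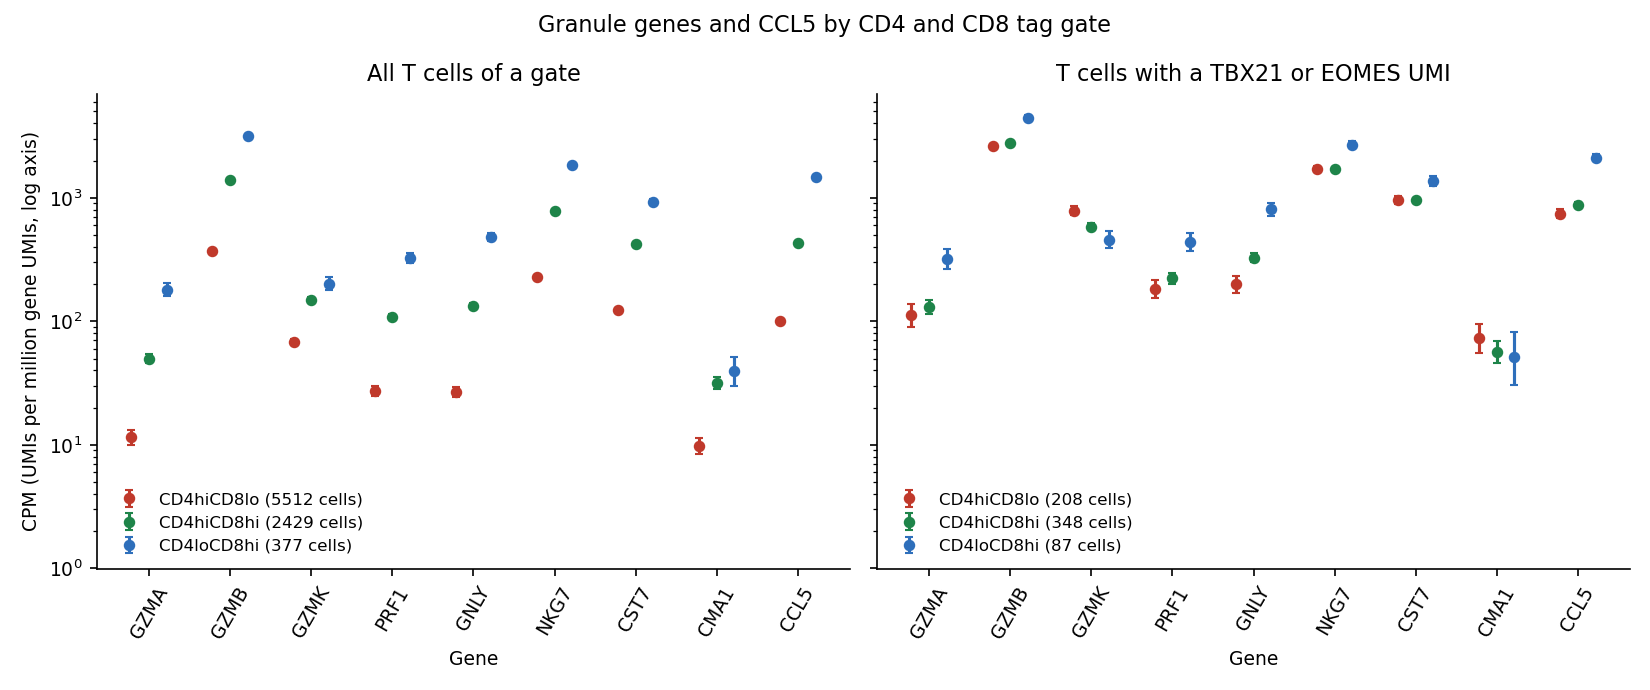
Level of the 9 genes in CPM (log axis) by tag gate, for all T cells (left) and for T cells with a UMI of TBX21 or EOMES (right), with exact Poisson 95% intervals. In all T cells the CD4loCD8hi gate lies above the CD4hiCD8lo gate for each gene, whereas among TBX21 or EOMES cells GZMK runs the other way, from 787.5 CPM in CD4hiCD8lo to 459.0 CPM in CD4loCD8hi cells.

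As ratios, CD4loCD8hi over CD4hiCD8lo cells gave 18.0-fold for GNLY (16.0 to 20.2), 15.6-fold for GZMA (13.0 to 18.9), 14.6-fold for CCL5 (13.7 to 15.6) and 12.0-fold for PRF1 (10.53 to 13.65). For CCL5 the share of positive CD4hiCD8lo cells, 6.13% after thinning, was no higher than the 7.34% of B cells described further on. That B cell share was not a floor for all T cells, since those with neither GZMB nor GZMK held CCL5 in 0.460%. How far background enters the CCL5 ratios over that gate was not tested. GZMB stood at 8.50-fold (8.18 to 8.83), NKG7 at 8.17-fold, CST7 at 7.42-fold, CMA1 at 4.01-fold (2.92 to 5.45) and GZMK at 2.99-fold (2.62 to 3.40). Thus 9 of 9 genes were at least 2-fold higher, where 5.29% of the 9227 genes with at least 50 UMIs were, and since the members were chosen for such values nothing is read from that count. Between CD4loCD8hi and CD4hiCD8hi cells 7 of 9 were at least 2-fold higher, with a background of 1.37% of 8681 genes, and the ratios of GZMK (1.35-fold, 1.185 to 1.53) and CMA1 (1.24-fold, 0.921 to 1.65) fell short. Between CD4hiCD8hi and CD4hiCD8lo cells it was again 9 of 9, with a background of 4.83% of 9823 genes, from 2.22-fold for GZMK to 4.91-fold for GNLY. The GZMK ratio was 1.53-fold when both tag limits were raised 1.5 times.

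The summed level of listed natural killer (NK) cell markers moved along with these levels. The 4 listed NK genes found among the symbols (NCAM1, NCR1, KLRF1 and TYROBP) summed to 24.6 CPM in CD4hiCD8lo, 48.3 in CD4hiCD8hi and 217.6 in CD4loCD8hi cells, where NCAM1 was at 0. KLRF1 was found in 89, 190 and 100 cells of the gates and TYROBP in 232, 102 and 18, out of 5512, 2429 and 377 cells. In the same order KLRF1 was at 6.33, 23.3 and 108.1 CPM and TYROBP at 18.1, 24.1 and 101.9 CPM. The 18 CD4loCD8hi cells held 147 TYROBP UMIs. Cells with a UMI of any of the 4 genes or of FCER1G made up 5.82%, 11.5% and 28.4% of the gates. When such cells were left out, a choice made after the levels had been seen, all 9 genes remained at least 2-fold higher in CD4loCD8hi than in CD4hiCD8lo cells. The ratio of GNLY was then 11.9-fold, of GZMA 9.84-fold and of GZMK 2.02-fold. Against CD4hiCD8hi cells 5 of 9 remained, GZMB at 1.96-fold and CST7 at 1.94-fold came to lie under the limit, and GZMK turned to 0.90-fold. The part of these cells in the ratios was not tested.

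For genes with several UMIs per positive cell, such as GZMB, the ratios over CD4hiCD8lo cells came mostly from how many cells carried the gene. How much each carrier held differed less. GZMB was detected in 8.45% of thinned CD4hiCD8lo cells (7.69 to 9.26%), 33.5% of CD4hiCD8hi cells (31.6 to 35.5%) and 59.8% of CD4loCD8hi cells (54.5 to 64.9%). A positive cell held a mean of 8.93, 9.45 and 12.5 thinned GZMB UMIs in the same order. From CD4hiCD8lo to CD4loCD8hi the share thus differed 7.07-fold and the UMIs per positive cell 1.40-fold. GNLY combined a 10.52-fold share with 1.83-fold UMIs per positive cell, and CCL5 a 9.58-fold share with 1.73-fold UMIs. GZMK was different, since its share was 6.74-fold higher, at 20.4% against 3.02%, while its mean UMIs per positive cell were lower, at 2.31 against 4.32, a ratio of 0.54. Carriers of GZMK were therefore more frequent among CD4loCD8hi cells but held fewer GZMK UMIs each. CMA1 had a ratio of 0.86 in UMIs per positive cell, near the floor of 1 UMI. Positive CD4hiCD8lo cells also held means of only 1.25 PRF1, 1.54 GZMA and 1.62 GNLY UMIs. So close to that floor a difference in level can show as one in share, and the 2 parts cannot be told apart for these genes. From CD4hiCD8hi to CD4loCD8hi the parts were closer for NKG7, at 1.66-fold in share and 1.49-fold in UMIs per positive cell. For GZMA they were 3.27-fold and 1.34-fold.

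Along the tags themselves the change was gradual. CD4hi T cells were divided into 10 bins of similar size by the CD8 tag. The share of thinned cells with GZMB was 0.73% in bin 1 (the lowest), 9.93% in bin 5, 28.4% in bin 8 and 36.7% in bin 10. CCL5 went from 1.03% to 30.4% and GZMK from 0.29% to 9.88% between the lowest and highest bins, whereas CMA1 had no UMI in the lowest bin and levelled off at 6.61%, 6.32% and 6.42% in the upper 3. The level of GZMB levelled off as well, at 1462 and 1475 CPM in the upper pair of bins, while that of GZMA increased from 36.7 CPM (30.5 to 43.8) to 74.2 (66.2 to 83.0). The median depth climbed with the CD8 tag, from 2819 to 4667 UMIs, and its part in the CPM values was not tested.

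CD8hi T cells were divided likewise by the CD4 tag, and here the genes parted. GZMB was in 60.4%, 67.6% and 61.3% of cells in the lowest 3 bins and in 17.7% in the highest. GZMA and PRF1 were lower in each of bins 2 to 4 than in the bin before, GZMA going from 197.5 CPM (171.6 to 226.2) to 118.0 (98.0 to 140.9) and 76.1 (59.6 to 95.9) over bins 1 to 3. CMA1 went the opposite way over the same cells, from 44.4 CPM (32.6 to 59.1) over 62.9 (48.5 to 80.1) to 86.7 (69.0 to 107.6), and ranged from 9.87 to 19.4 CPM from bin 6 on. GZMK had a dip where CMA1 peaked, from 218.3 CPM (191.1 to 248.4) in bin 1 to 62.4 (47.5 to 80.5) in bin 3, and returned to 266.7 (236.0 to 300.3) in bin 5. Bin 3 spanned 272 to 334 CD4 tag UMIs and held 278 cells, so that the peak and the dip lay above the CD4 limit and inside the CD4hiCD8hi gate.

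**Figure D2:**
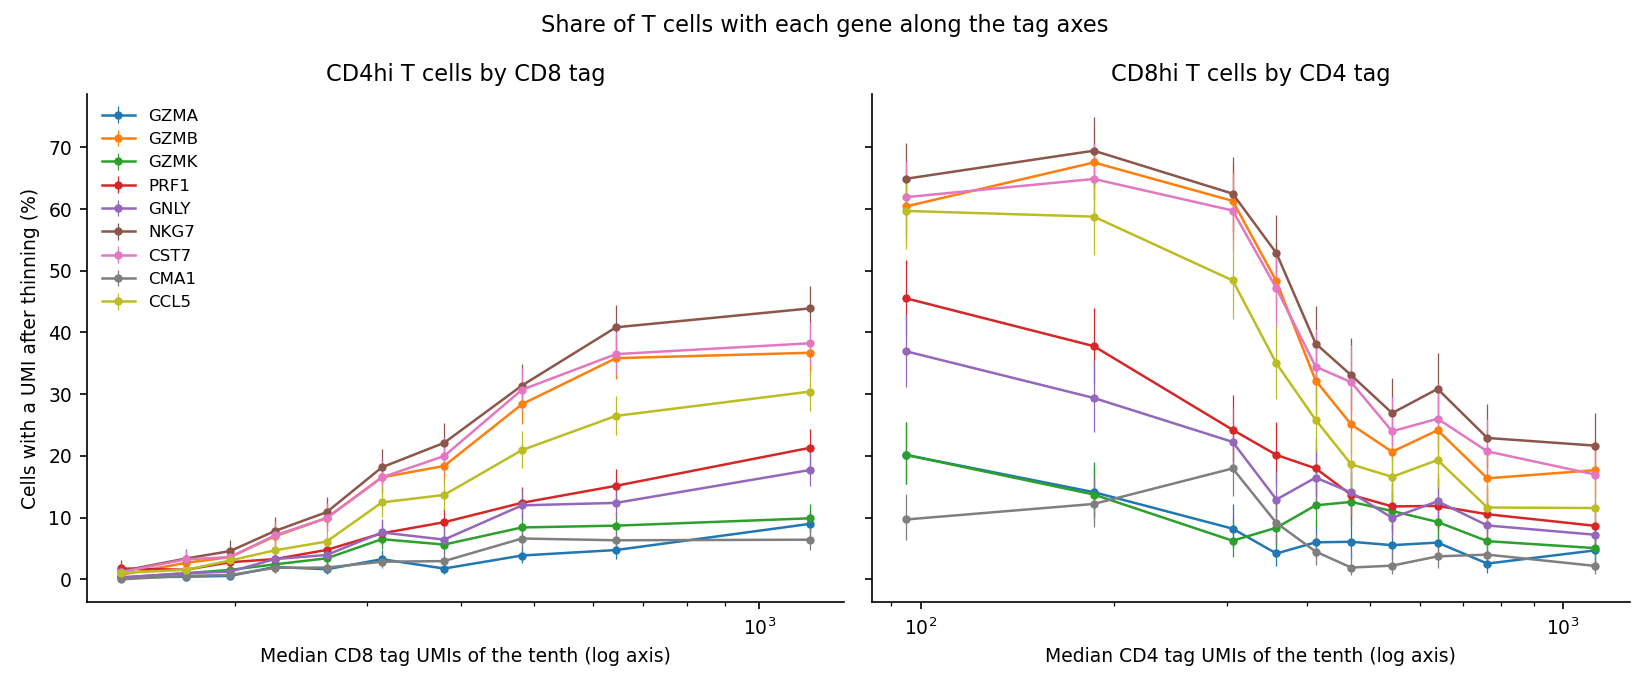
Share of thinned T cells (%) with a UMI of each gene against the median tag UMIs of each bin (log axis), for CD4hi T cells by CD8 tag (left) and CD8hi T cells by CD4 tag (right), with exact binomial 95% intervals. The shares climb with the CD8 tag, GZMB from 0.73% to 36.7%, and mostly decline with the CD4 tag, where CMA1 peaks at 18.0% in bin 3 and GZMK is at 6.25% there.

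The gates were next compared within the 646 T cells with a UMI of TBX21 or EOMES, the transcription factors that drive cytotoxic programmes. These are called effector cells for short, and were 208 CD4hiCD8lo, 348 CD4hiCD8hi and 87 CD4loCD8hi cells. The name does not describe all of them, as they pooled 364 cells with TBX21 only, 253 with EOMES only and 29 with both. GZMK was 8.32-fold higher with EOMES only than with TBX21 only. The part of this mix in the differences between tag gates was not tested. Of the 1508 T cells with a GZMB UMI before thinning, 1041 held no UMI of either factor. The gate therefore held only a part of the cells with granule genes. CD4hiCD8hi and CD4hiCD8lo effector cells then lay close together for several genes. GZMB was at 2789 CPM (2712 to 2868) and 2610 CPM (2498 to 2726), NKG7 at 1702 and 1714 CPM, and CST7 at 956 CPM in both. None of the 9 genes was 2-fold higher in CD4hiCD8hi effector cells, with a background of 0.883% of 5097 genes, and the ratio farthest above 1 was that of GNLY at 1.64-fold (1.37 to 1.97). The gate took 208 of 5512 CD4hiCD8lo cells and 348 of 2429 CD4hiCD8hi cells, which are not counts of all effector cells.

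CD4loCD8hi effector cells kept higher levels of some genes. Over CD4hiCD8lo effector cells the ratio was 4.02-fold for GNLY (3.30 to 4.92), 2.86-fold for GZMA (2.14 to 3.83) and for CCL5 (2.56 to 3.19), and 2.39-fold for PRF1 (1.89 to 3.02). These were 4 of 9, with a background of 1.21% of 2810 genes. GZMB at 1.70-fold, NKG7 at 1.57-fold and CST7 at 1.43-fold were below 2-fold with intervals above 1. After thinning, the share of GNLY cells differed 1.72-fold and their UMIs per positive cell 2.01-fold, and for GZMB 1.27-fold and 1.29-fold. For GZMA (2.07-fold and 1.47-fold) and PRF1 (1.81-fold and 1.18-fold) the share differed more. Positive CD4hiCD8lo effector cells held means of 1.48 GZMA, 1.38 PRF1 and 1.66 GNLY UMIs. These lay near the floor of 1 UMI, so the 2 parts cannot be told apart for these genes. Over CD4hiCD8hi effector cells GNLY (2.46-fold), GZMA (2.44-fold) and CCL5 (2.41-fold) passed, or 3 of 9, with a background of 0.93% of 4518 genes. A listed NK or innate marker UMI was found in 50.6% of the CD4loCD8hi effector cells, against 18.3% of CD4hiCD8lo and 21.6% of CD4hiCD8hi effector cells. Without these cells the ratio of GNLY was 2.13-fold over CD4hiCD8lo and 1.69-fold over CD4hiCD8hi effector cells, while CCL5 was at 2.82-fold and 2.63-fold and GZMA at 2.80-fold and 2.68-fold. PRF1 then reached 2.92-fold and 2.08-fold. The part of cells with such a marker UMI in these ratios was not tested. The GNLY ratio over CD4hiCD8hi effector cells was also under the limit without the 5% deepest cells, at 1.79-fold.

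GZMK ran in the other direction among effector cells. It was at 787.5 CPM (726.5 to 852.1) in CD4hiCD8lo, 583.1 (548.0 to 619.8) in CD4hiCD8hi and 459.0 (390.6 to 535.9) in CD4loCD8hi effector cells, with no overlap between the intervals. The share of thinned effector cells with GZMK was nearly level, at 39.1%, 33.9% and 40.0%, and the mean UMIs of a positive cell were 4.54, 4.59 and 2.59. CMA1 stood at 72.7 CPM (55.1 to 94.3), 56.6 (46.0 to 68.8) and 51.6 (30.6 to 81.6), and did not differ between the gates beyond counting error.

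The effector cells were then divided by transcription factor. In the 364 T cells with TBX21 only, GZMB was at 3900 CPM (3803 to 3998) and GZMK at 154.9 CPM (136.1 to 175.5). In the 253 cells with EOMES only, GZMB was at 1484 CPM (1414 to 1556) and GZMK at 1289 CPM (1224 to 1356). GZMK was therefore 8.32-fold higher with EOMES only (7.27 to 9.56), the 1 member at least 2-fold higher there, with a background of 1.38% of 5296 genes. GZMB at 2.63-fold (2.49 to 2.77) and CMA1 at 3.90-fold (2.55 to 6.17) were at least 2-fold higher with TBX21 only, with a background of 1.83% of the same genes. CCL5 was 1.86-fold higher with TBX21 only (1.70 to 2.02), and GNLY was 1.66-fold higher with EOMES only (1.45 to 1.91). GZMA did not differ beyond counting error, at 137.2 and 139.3 CPM (ratio 0.985, 0.799 to 1.22). Without the cells that held NK or innate marker UMIs the GZMA ratio became 1.54-fold towards TBX21, CCL5 reached 2.29-fold and GNLY had a ratio of 0.83 between TBX21 only and EOMES only cells.

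Whether the granzymes shared cells was read from co-detection in the 7675 thinned T cells. GZMB was present in 1413 cells and GZMK in 430, and 257 cells held both. GZMK cells therefore held GZMB in 59.8% of cases (55.0 to 64.4%), whereas GZMB cells held GZMK in 18.2% (16.2 to 20.3%). The 257 cells were 3.25 times the product of both shares over all T cells, but among the 633 thinned TBX21 or EOMES cells the 112 cells with both were 0.69 times the product. Within the cells of each factor alone the value was 1.02 among TBX21 only cells (50 cells) and 0.81 among EOMES only cells (53 cells). Across single T cells the Pearson r of GZMB with GZMK was 0.22 over 8349 cells, −0.45 over the 646 TBX21 or EOMES cells, −0.02 over 364 TBX21 only cells and −0.30 over 253 EOMES only cells, all from the same library and so sharing depth effects.

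The 2 granzymes went with different partners. Cells with GZMK but not GZMB numbered 173, and 15.0% of them held CCL5 (10.1 to 21.2%), against 75.3% (72.8 to 77.8%) of the 1156 cells with GZMB only and 74.3% (68.5 to 79.5%) of the 257 cells with both. CMA1 was found in 1.73% of GZMK only, 18.9% of GZMB only and 13.2% of the cells with both. GZMA was found in 3.47%, 16.2% and 31.5%, so that it was most frequent where both granzymes were present. NKG7 and CST7 were common in all 3 kinds of cell, at 75.7% and 79.8% of GZMK only cells and 93.6% and 85.7% of GZMB only cells. PRF1 was in 24.3% of GZMK only and 42.2% of GZMB only cells, and GNLY in 29.5% and 34.0%. GZMK only cells held EOMES in 46.8% and CCR7, a lymph node homing receptor, in 52.6%, with no CX3CR1 UMI in 173 cells, which by a limit of 3 counts allows a share of cells with a UMI of up to 1.73% (exact upper bound 2.11%). GZMB only cells held CX3CR1, a receptor of circulating effector cells, in 38.3% and CCR7 in 8.39%.

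The tag gates differed in which of these kinds they held. Among thinned effector cells GZMK only cells were 23.3% of CD4hiCD8lo (17.6 to 29.7%), 19.1% of CD4hiCD8hi (15.1 to 23.7%) and 5.88% of CD4loCD8hi cells (1.94 to 13.2%). Cells with both were 15.8% (11.1 to 21.6%), 14.8% (11.2 to 19.0%) and 34.1% (24.2 to 45.2%). Among effector cells GZMK was thus mostly seen together with GZMB in the CD4loCD8hi gate and more often without it in both CD4hi gates. This was not so for the CD4hi gates over all thinned cells, where 77 CD4hiCD8lo cells held both and 74 held GZMK only, and 112 CD4hiCD8hi cells held both and 93 held GZMK only. In all thinned CD4loCD8hi cells 68 held both and 6 held GZMK only.

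**Figure D3:**
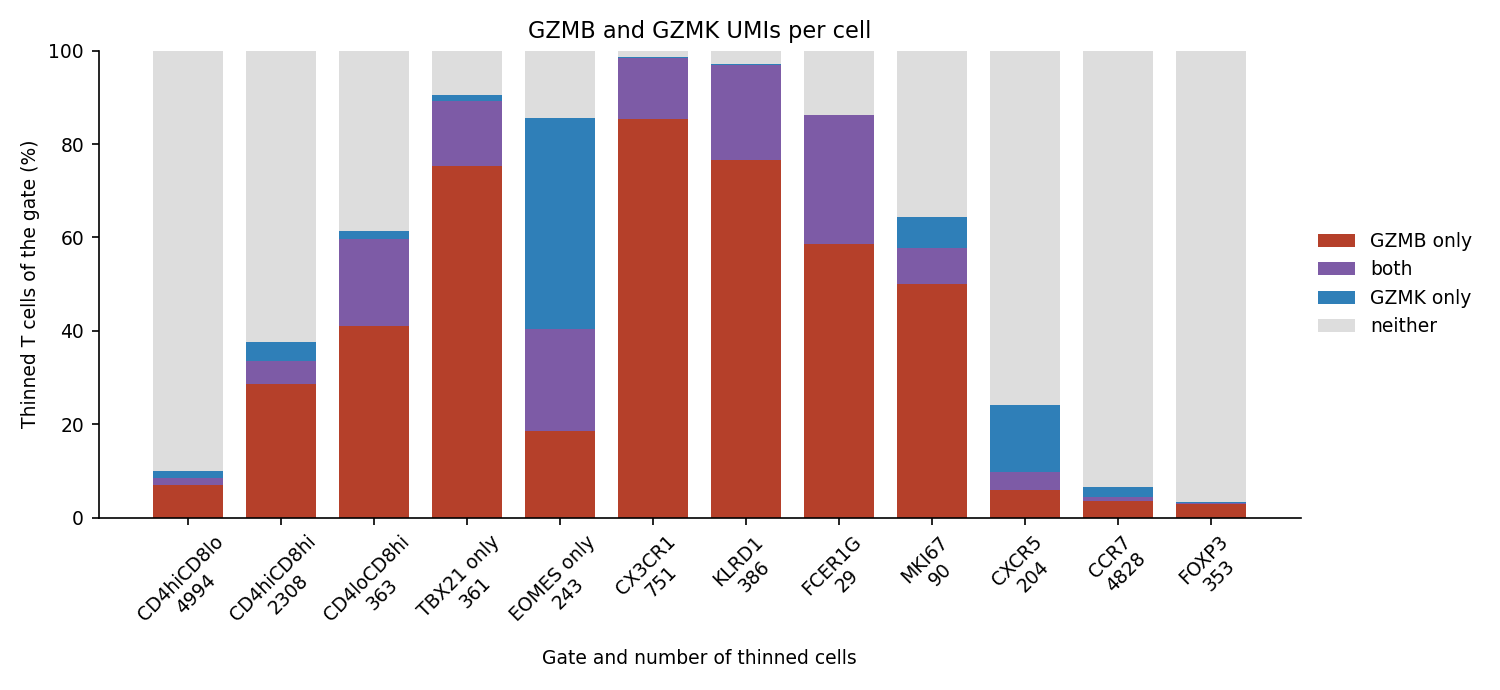
Share of thinned T cells (%) with GZMB only, both granzymes, GZMK only or neither, by tag gate and by marker gate, with the number of thinned cells under each bar. GZMK only cells are 45.3% of EOMES only cells but 1.39% of TBX21 only and 0.13% of CX3CR1 cells.

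Cells of most other members were largely contained among the GZMB cells. Of the 256 thinned CMA1 cells 98.4% held GZMB (96.0 to 99.6%), and of the 276 GZMA cells 97.1% did (94.4 to 98.7%). CCL5 cells held GZMB in 95.2% (93.7 to 96.3%), and GZMB cells held CCL5 in 75.2% (72.8 to 77.4%). NKG7 was in 94.3% of GZMB cells, which is the share read the other way. Among cells without GZMB, NKG7 was in 131 with GZMK only and 151 with neither granzyme, and CST7 in 138 and 107. PRF1 and GNLY were looser than CMA1, GZMA and CCL5, with GZMB in 79.6% and 82.3% of their cells. Pairs without GZMB were not all contained in this way, since PRF1 cells held GNLY in 36.1% and GNLY cells held PRF1 in 44.0%, and 52 cells held both GZMA and CMA1, or 18.8% of GZMA and 20.3% of CMA1 cells. The highest r among the 36 pairs across T cells were 0.92 for GZMB with NKG7 and 0.91 for NKG7 with CST7, and the lowest was 0.08 for GZMK with CMA1. In sparse genes such as GZMA and CMA1 a missing UMI does not show that a cell lacked the transcript.

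**Figure D4:**
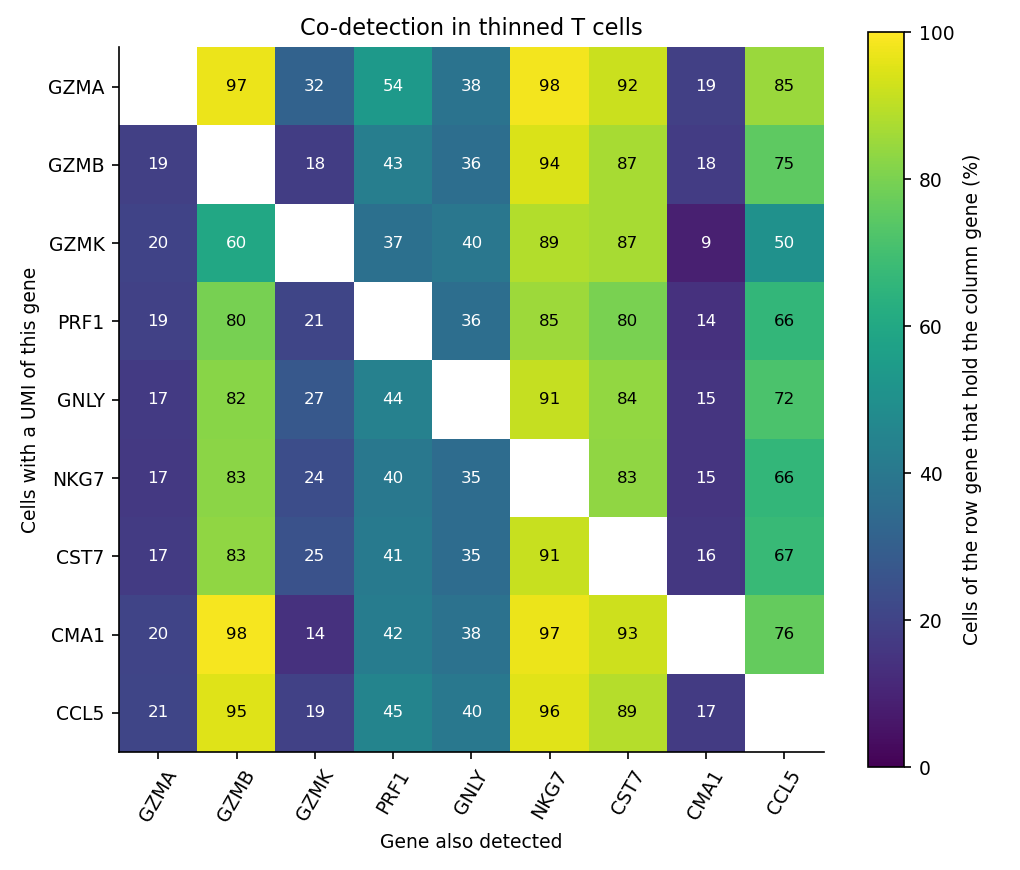
Co-detection in 7675 thinned T cells, as the share (%) of the cells with the row gene that also hold the column gene. The GZMB column is at 79.6% or more for all rows other than GZMK (59.8%), and the CMA1 field of the GZMK row is at 8.60%.

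CMA1 was examined for mast cell or basophil RNA, since chymase is a mast cell product. The 6 listed mast cell and basophil genes found among the symbols had 8 UMIs in all T cells, with FCER1A, CPA3 and HDC at 0. T cells with CMA1 held 4 of them, all from KIT in 1 of 424 cells. The T cell genes were at 3943 CPM in T cells with CMA1 and 3306 CPM in those without. Since the T cell gate itself required UMIs of these genes, their presence is not read as a sign of cell type. Along with GZMB, the thinned CMA1 cells held NKG7 in 96.9%, CST7 in 92.6%, CCL5 in 76.2% and CX3CR1 in 38.3%, and no UMI of FOXP3, CXCR5 or CCR6. In the RefSeq annotation of another assembly of this species, the gene order was CMA1, CTSG, GZMH and GZMB. GZMH was not analysed here, and whether reads of a neighbouring gene were counted as CMA1 was not tested. GZMK and GZMA were adjacent genes in the same annotation, and 87 thinned cells held both.

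The genes were then followed over T cells gated by 1 UMI of a marker gene. Killer-type gates were the highest. GZMB was at 4732 CPM (4633 to 4834) in 389 KLRD1 cells, 4512 CPM (4440 to 4584) in 769 CX3CR1 cells and 3745 CPM (3550 to 3949) in 76 ZNF683 cells, and was detected in 98.5% of thinned CX3CR1 cells. The 30 FCER1G cells, whose gate gene encodes an adaptor of innate receptors, held the highest levels of GNLY (2760 CPM, 2505 to 3033), CCL5 (3652 CPM, 3358 to 3964) and GZMA (828 CPM, 691 to 984). For GZMB the interval of these cells (5121 CPM, 4772 to 5489) overlapped that of KLRD1 cells. PRF1 was at 359 CPM (271.5 to 467) against 366 (339 to 395) in KLRD1 cells, again with overlap. The FCER1G cells also held 2034 CPM of the NK list and 1720 CPM of the T cell genes, compared with 42.6 and 3347 CPM in all T cells.

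The 92 MKI67 cells, which carry a marker of proliferation, had an uneven profile. Their GZMA level of 250 CPM (212 to 294) was close to the 252 CPM (229 to 276) of KLRD1 cells, but their GZMB level of 2058 CPM (1945 to 2177) lay below the 4732 CPM of KLRD1 cells and their CCL5 level of 593 CPM (533 to 658) below 1830 CPM (1768 to 1893). GZMA was detected in 25.6% of the thinned MKI67 cells (16.9 to 35.8%), against 3.60% of all T cells. The median depth of the MKI67 cells was 5444.5 UMIs, against 3742 in KLRD1 cells.

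Helper-type and naive-type gates were low in GZMB, though not all of them were low in each gene. FOXP3 cells had 143 CPM of GZMB (124 to 163) and 50.2 CPM of CCL5, CCR7 cells had 185 and 65.4 CPM, LEF1 cells 179 and 63.8 CPM, and CCR6 cells 187 and 108 CPM. The 210 CXCR5 cells had a GZMK level of 349 CPM (313 to 387), compared with 104 CPM in all T cells, while their GZMB level of 282 CPM (251 to 317) was below the 873 CPM of all T cells. GZMK was in 18.1% of the thinned CXCR5 cells (13.1 to 24.1%) and GZMK only cells were 14.2% of them. In 101 ZBTB16 cells PRF1 was detected in 21.2% (13.6 to 30.6%), against 9.89% of all T cells. GZMB was detected in 12.1% of them (6.42 to 20.2%), against 18.4% of all T cells. Their GZMK level was 155 CPM (123 to 192). No GZMB UMI was found in the 16 PTGDR2 cells, which by a limit of 3 counts allows a share of cells with a UMI of up to 18.8% (exact upper bound 20.6%).

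**Figure D5:**
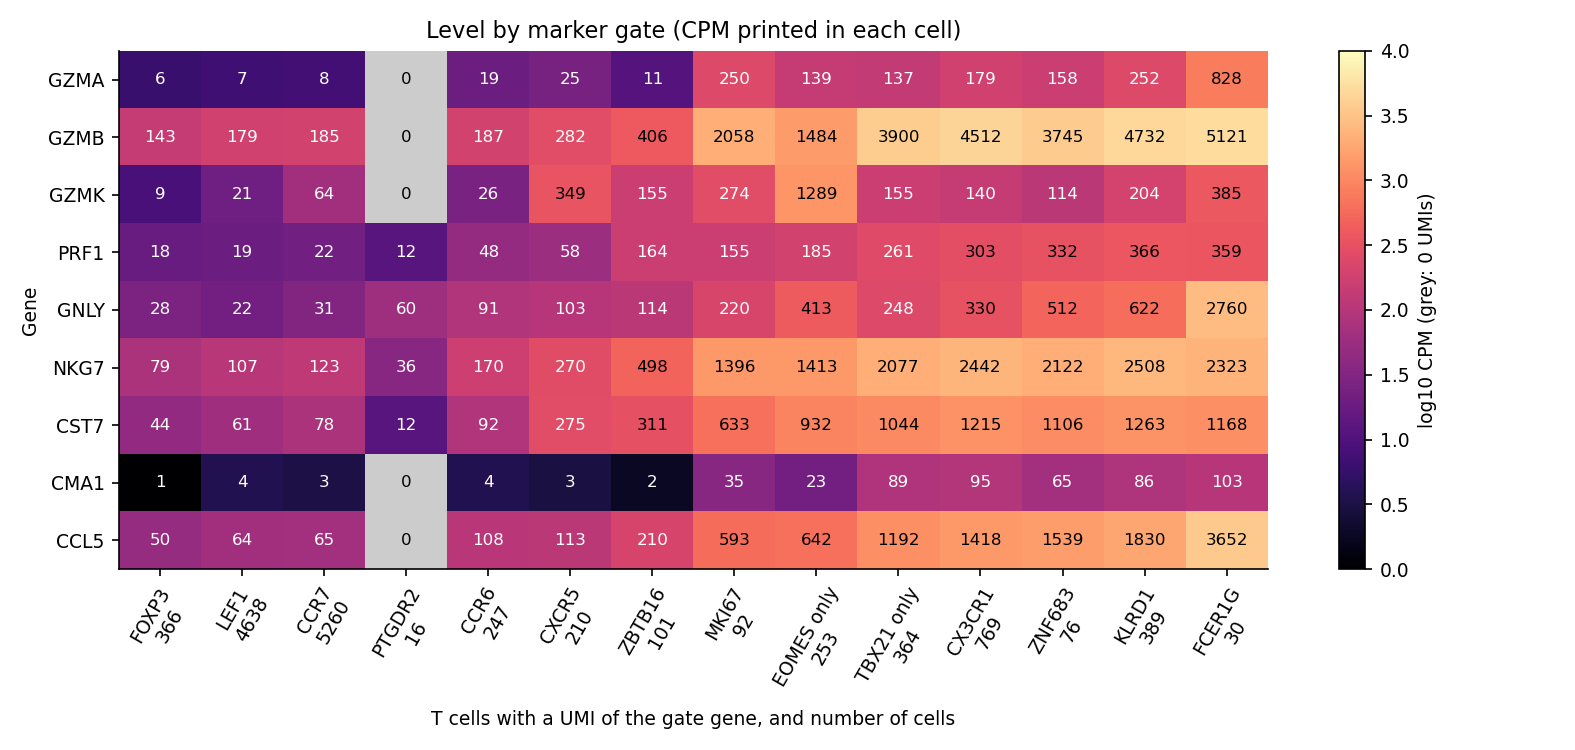
Level of the 9 genes by marker gate, coloured by log10 CPM, with the CPM printed in each field and the number of cells under each gate. Killer-type gates are on the right, where FCER1G cells reach 2760 CPM of GNLY, and GZMK departs from the other genes in the EOMES only (1289 CPM) and CXCR5 (349 CPM) gates.

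As a background for the low gates, 113 B cells (at least 3 UMIs of B cell genes and at most 1 of T cell genes) were used. In 92 of them none of the 9 genes had a UMI, and 2 cells held 269 of the 306 UMIs. These 2 cells held 30 TYROBP and 5 NCR1 UMIs as well. Without them, a choice made after the values were seen, GZMB was in 1 of 109 thinned B cells (0.917%, 0.023 to 5.01%), GNLY, NKG7, PRF1, GZMA and CMA1 were in none, which by a limit of 3 counts allows shares of up to 2.75% (exact upper bound 3.33%), and CCL5 was in 8 (7.34%, 3.22 to 14.0%). The shares of CCL5 in FOXP3 (1.70%), LEF1 (2.87%), CCR7 (3.11%) and CCR6 cells (3.27%) were below that of the B cells, and no difference between these gates is read from them. The CCL5 shares of CXCR5 cells (7.35%) and of all CD4hiCD8lo cells (6.13%) lay inside the interval of the B cells too. CCL5 was found in 0.460% of the 6089 thinned T cells with neither GZMB nor GZMK, so the B cell share was not reached in all T cells. The median depth was 4549 UMIs in B cells and 3122 in T cells before thinning.

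The T cell genes whose levels ran most like the members were found by Pearson r over 8349 T cells and 9844 genes. The members themselves were left out of the ranking. S100A4, a calcium-binding protein of memory T cells, ranked first for 7 of the 9 members, with r from 0.39 for CMA1 to 0.78 for NKG7. TNFRSF1B, a TNF receptor, and HOPX, a transcriptional cofactor, followed for GZMB (0.71 each), PRF1 (0.50 and 0.48), NKG7 (0.72 and 0.69) and CST7 (0.70 and 0.66). GZMK stood apart, with EOMES first (0.56), then CD74 (0.38) and HLA-DPB1 (0.35), both of class II antigen presentation. GZMA had TESC first (0.35), and SERPINA1, a protease inhibitor, was second for CMA1 (0.38). The 99th percentile of r over all genes was 0.38 for GZMB and 0.15 for GZMK.

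A list of 41 further genes of granule release, death ligands, protease inhibitors and chemokines was read beside them, of which 31 were among the symbols. The other 10, among them GZMH, GZMM, CCL3, CCL4, XCL1 and XCL2, were not analysed here. Of the 24 with at least 50 UMIs, 13 were at least 2-fold higher in CD4loCD8hi than in CD4hiCD8lo cells and 3 were at least 2-fold lower, beside 488 and 622 of all 9227 genes. The death ligand FASLG was 16.9-fold higher (9.81 to 29.4), IFNG 9.41-fold (6.17 to 14.3) and the cathepsin CTSW 6.42-fold (5.84 to 7.06). SERPINB9, the intracellular inhibitor of granzyme B, was 3.98-fold higher (3.34 to 4.72), and RAB27A, which docks granules at the membrane, 3.54-fold (2.89 to 4.31). LTB, a lymphotoxin of naive and helper cells, was lower, at 570 against 1495 CPM. The other listed death ligand, TNFSF10, was lower too, at 5.54 CPM (2.39 to 10.9) against 15.4 (13.6 to 17.4). SLC29A3 was at 3.46 against 9.38 CPM. Among effector cells CTSW was the 1 listed gene at least 2-fold higher in CD4loCD8hi cells, of 16 and 17 tested against the CD4hiCD8lo and CD4hiCD8hi gates, beside 1.21% and 0.93% of all genes. Its ratio was 8.12-fold over CD4hiCD8lo (5.78 to 11.6) and 4.95-fold over CD4hiCD8hi effector cells (3.95 to 6.19), and it was also 2.24-fold higher in EOMES only than in TBX21 only cells.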

How the data were processed

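A 10x 5′ gene expression library and a CD4 and CD8 antibody tag library of the same cells were analysed. The deposited matrix held unnormalized UMI counts for each gene and tag in each barcode. Per the labels' processing notes, the authors used Cell Ranger 3.1.0, STAR 2.5.1b and Seurat 3.1.3. Reads were aligned by the authors to the Macaca_fascicularis_5.0 genome. The 9 genes and all gene lists were chosen with earlier results of these data known. Genes named beside the members were the listed granule and chemokine genes, the gate genes and, for each member, the 3 non-member genes with the highest r.

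Barcodes were kept if they had between 200 and 4000 genes and no more than 20% of UMIs from mitochondrial genes, and 674 T cells under 2200 UMIs were left out of thinned shares. No doublet caller was run and no doublets were removed. Depth was 29390287 gene UMIs over 8349 T cells. Levels were sums of counts per 1000000 gene UMIs with exact Poisson 95% intervals, shares had exact Clopper-Pearson intervals, and ratios used the binomial split of both counts. A gene was called where the ratio was at least 2-fold with at least 50 UMIs over both gates, a gate at 0 being set to 3 UMIs. Correlations used log values of UMIs per 10000. No p-value was computed, because cells of 1 animal are not replicates. Computation used numpy 2.4.6 and scipy 1.17.1 under Python 3.11.15, plots used matplotlib 3.10.9, and the code was tested on simulated data. Alternatives covered the cell filters, tag limits, thinning depth, weighting and the filter on low genes. They also covered removal of deep cells or of cells with NK or innate marker UMIs. The result of 1 marker gate is not reported here.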

Additional observations from a re-analysis of the deposited data

Results flagged for a closer look

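UMIs of 8 of the 9 genes were found in the 113 B cells used as a background, which enter no comparison between T cell gates, at totals above the 3 UMIs set as the floor. They were 10 UMIs of GZMA, 76 of GZMB, 8 of GZMK, 4 of PRF1, 70 of GNLY, 33 of NKG7, 18 of CST7 and 87 of CCL5, and CMA1 had none. Of these 306 UMIs, 269 lay in 2 cells that also held 46 UMIs of B cell genes, 35 of the NK list and 1 of T cell genes. Without both cells CCL5 had 28 UMIs in 13 of 111 cells and CST7 had 7 UMIs in 4 cells.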

How the results depend on the processing

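Of 610 ratios recomputed under other settings, 476 stayed within the counting interval of the reported ratio, 134 moved outside it, and no ratio of at least 2-fold changed sign. With T cells gated at 1 or more T gene UMI, 2 genes in place of 1 were higher in EOMES only cells (GNLY, log2 of TBX21 only over EOMES only cells −1.26 against −0.73). The share of T cells with any of the 9 genes, 25.3%, was 23.2% when thinned to 1500 UMIs, 20.9% when 2 UMIs were asked for and 24.0% without the 5% deepest cells. The share with both GZMB and GZMK, 3.35%, was 4.07% with no thinning, 2.54% at 1500 UMIs and 1.67% with 2 UMIs asked for. Weighting cells equally brought PRF1 to 2.01-fold between CD4loCD8hi and CD4hiCD8hi effector cells and CCL5 to 2.09-fold between TBX21 only and EOMES only cells. The GNLY ratio in the former was 1.97-fold with tag limits raised 1.5 times and 1.59-fold with limits lowered as much. The cause of these changes was not tested. Over all genes, the number called rose without a filter on low counts, from 488 to 1632, 119 to 966 and 474 to 1375 in the T cell comparisons, 34 to 1066, 42 to 1010 and 45 to 603 among effector cells, and 97 to 655 and 73 to 919 between TBX21 only and EOMES only cells. Lower tag limits gave 308 in place of 119, 12 in place of 34, 214 in place of 42 and 248 in place of 45. Without the 5% deepest cells 27 in place of 42 and 20 in place of 45 were called. No paired analysis was possible because there was 1 library of each kind.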
